A study of Homo sapiens with 2 samples.

Results

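The HOX genes encode homeodomain transcription factors and lie in 4 clusters, HOXA on chromosome 7, HOXB on chromosome 17, HOXC on chromosome 12 and HOXD on chromosome 2. The set examined here was a list of 38 HOX genes, out of 20046 protein-coding genes in the GENCODE release 44 annotation. ChIP-seq regions were taken from a window around each cluster that began 250 kb before its first listed gene and ended 250 kb after its last. The 4 windows held 28 of the 3663 regions called for TCF7L1 and 0 of the 204 regions called for TCF7L1-MUT. Neither the genes nor the windows were picked by measured values, although the set was chosen with earlier results of these data known.

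The cells were HCT116, a human colon adenocarcinoma line, carrying a stable knockdown of TCF7L1 by the short hairpin shTCF7L1-2 and treated with 1 µg/ml doxycycline. Under doxycycline the pCW57.1 vector expressed FLAG-tagged TCF7L1 in one group and TCF7L1-MUT, a form with a mutated DNA-binding domain, in the other. Knockdown, doxycycline and antibody were common to both groups, and the anti-FLAG antibody recovered the introduced protein rather than the cells' own. Each group was 1 sample, so no value below has a replicate check, and the 95% intervals cover counting error only. The windows address where the introduced protein was found along the HOX clusters, and whether the mutated protein was found there too. The files hold no expression values, so the cell type could not be checked against marker genes and no HOX transcript level is known here.

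TCF7L1 is a TCF/LEF protein that binds DNA through its HMG box and mostly acts as a repressor of Wnt target genes until β-catenin relieves it. HOX genes give cells their position along the body axis, and their order along a cluster follows the order in which they are used from head to tail, the numbers running from anterior to posterior. In the embryo, Wnt signals and the CDX homeodomain proteins help to open the clusters, Polycomb proteins keep unused parts silent, and the gut keeps a regional HOX code in the adult. PBX and MEIS proteins of the TALE class bind DNA together with HOX proteins.

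Across the windows the TCF7L1 regions were dense, and most of that density lay inside the clusters. Of the 28 regions, 17 had their summit, the base of highest signal, between the first and last listed gene of a cluster, and 11 lay in the flanks. This came to 33.0 regions per Mb inside the clusters (95% exact Poisson interval 19.2 to 52.8), 5.50 in the flanks (2.75 to 9.84) and 1.22 over chromosomes 1 to 22, X and Y (1.18 to 1.26). Within 2.5 kb of a transcription start site (TSS) of a listed HOX gene the density was 42.6 regions per Mb (22.01 to 74.4), against 3.48 (3.26 to 3.72) within the same distance of a TSS of any protein-coding gene. The interval of the clusters did not overlap that of the chromosomes as a whole.

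The 4 clusters held similar densities. HOXA had 3 regions in 99.7 kb, HOXB 6 in 200.2 kb, HOXC 4 in 117 kb and HOXD 4 in 98.2 kb, which gave 30.1, 29.97, 34.1 and 40.7 regions per Mb. The intervals of these values overlapped widely, the lowest being 6.20 to 87.9 for HOXA and the highest 11.1 to 104 for HOXD. On the chromosomes that carry them the densities were 1.019 to 1.83 regions per Mb.

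**Figure D1:**
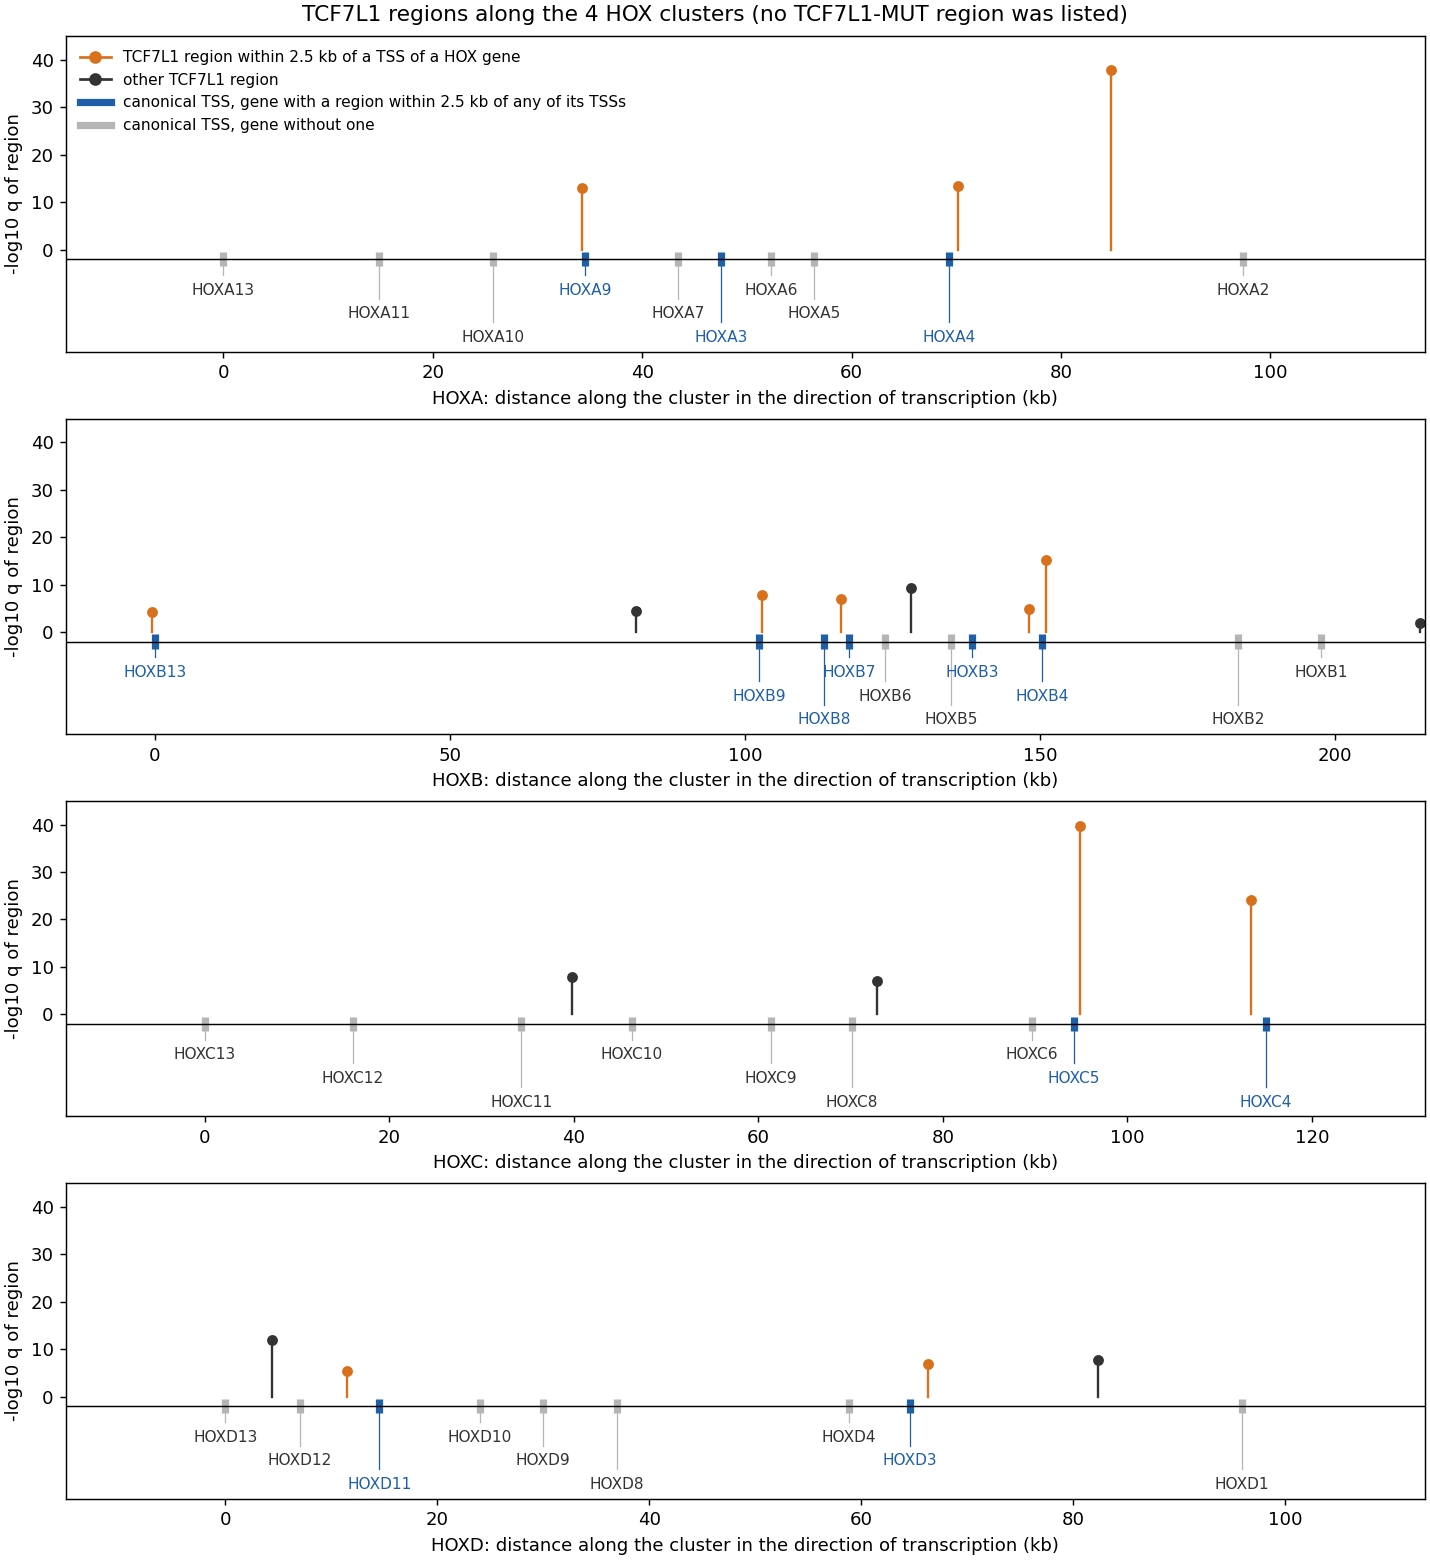
Map of the 4 HOX clusters drawn to scale in kb from the 5′ end of the cluster, with each TCF7L1 region as a stem whose height is its −log10 q and each gene as a bar at its canonical TSS (blue, a summit within 2.5 kb of any TSS of the gene). The 2 tallest stems are the HOXC5 region at 39.6 and the HOXA3 region at 37.8, and the 4 HOXD regions stay between 5.46 and 11.9.

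For the mutated protein the windows were empty. TCF7L1-MUT had 134 regions on the chromosomes, or 0.0456 per Mb, a density at which 0.115 regions would be expected in the 2.52 Mb of the windows. A count of 0 allows up to 3 counts by a one-sided rule, or 1.19 regions per Mb, and the exact Poisson interval used for the other densities reached 1.47. Both are above that density and below the 11.1 (7.40 to 16.1) found with TCF7L1. The nearest TCF7L1-MUT region lay 29171462 bp from HOXA, 5281678 bp from HOXB and 78653570 bp from HOXD, and chromosome 12 had 0. With so short a TCF7L1-MUT list, the empty windows do not set the HOX clusters apart from most of the genome.

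The DNA under the summits that carry the later comparisons is given here, from the hg38 assembly and on the strand that is transcribed into the HOX genes. These are the windows of 100 bp to either side of a summit that lay within 2.5 kb of a HOX TSS, touched no annotated UTR and held a TCF word or a CDX word. Capitals mark CTTTG followed by 2 bases that are each A or T, the core of the sequence bound by TCF/LEF proteins, and TTTATGG or TTTATTG, words bound by CDX proteins and by posterior HOX proteins, each read on either strand. No TCF match shared a base with a CDX match in these windows.
HOXA3, chr7:27115238-27115438, minus strand: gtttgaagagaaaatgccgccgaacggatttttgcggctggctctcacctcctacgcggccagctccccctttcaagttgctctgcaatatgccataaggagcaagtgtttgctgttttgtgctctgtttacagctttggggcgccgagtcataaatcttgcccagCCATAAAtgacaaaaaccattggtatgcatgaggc
HOXA4, chr7:27129806-27130006, minus strand: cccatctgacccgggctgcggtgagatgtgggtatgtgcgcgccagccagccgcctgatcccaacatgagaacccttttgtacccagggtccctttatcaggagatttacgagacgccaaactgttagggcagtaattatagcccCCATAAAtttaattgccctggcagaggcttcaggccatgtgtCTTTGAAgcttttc
HOXB4, chr17:48577603-48577803, minus strand: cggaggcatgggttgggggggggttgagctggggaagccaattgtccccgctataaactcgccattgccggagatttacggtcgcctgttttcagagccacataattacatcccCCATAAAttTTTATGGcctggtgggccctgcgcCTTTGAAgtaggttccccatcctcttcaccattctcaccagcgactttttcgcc
HOXB3, chr17:48580417-48580617, minus strand: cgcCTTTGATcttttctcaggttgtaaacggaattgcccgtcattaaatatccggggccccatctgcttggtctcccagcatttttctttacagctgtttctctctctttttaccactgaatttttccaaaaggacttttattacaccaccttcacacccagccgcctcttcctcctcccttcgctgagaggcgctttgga
HOXB9, chr17:48625685-48625885, minus strand: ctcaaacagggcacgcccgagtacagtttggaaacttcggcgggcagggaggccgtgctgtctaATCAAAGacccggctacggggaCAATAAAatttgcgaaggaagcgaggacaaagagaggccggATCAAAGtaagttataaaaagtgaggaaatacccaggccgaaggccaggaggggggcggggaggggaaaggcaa
HOXC5, chr12:54033574-54033774, plus strand: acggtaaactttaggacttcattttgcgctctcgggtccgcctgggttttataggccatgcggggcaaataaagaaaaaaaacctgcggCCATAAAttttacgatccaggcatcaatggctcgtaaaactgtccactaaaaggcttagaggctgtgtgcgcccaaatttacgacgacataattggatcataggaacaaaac
HOXD3, chr2:176158944-176159144, plus strand: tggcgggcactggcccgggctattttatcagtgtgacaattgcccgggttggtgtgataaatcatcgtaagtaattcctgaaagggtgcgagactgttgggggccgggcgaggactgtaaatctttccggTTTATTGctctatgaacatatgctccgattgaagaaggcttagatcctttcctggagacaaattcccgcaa
The CDX word stood as CCATAAA, its reverse complement, in the HOXA3, HOXA4, HOXB4 and HOXC5 windows, and the HOXB4 window held it on both strands. The HOXA4 and HOXB4 windows shared the run cccccataaattt of 13 bases, the longest run shared among 136 pairs of windows inside the clusters. HOXA4 and HOXB4 are paralogs, genes at the same place in 2 clusters. The HOXB4 and HOXC5 windows shared ccataaatttt of 11 bases, so the matches in these 3 windows were not separate sequences in every respect. The shared run began 14 bases after the HOXB4 summit and 11 bases before the HOXC5 summit. The HOXA9 and HOXC8 windows shared 12 bases without a CDX word, so shared runs of about this length were not limited to CDX matches.

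A summit within 2.5 kb of any annotated TSS was found for 13 of the 38 HOX genes, or 34.2% (Wilson interval 21.2 to 50.1%), against 4.86% of all protein-coding genes. For TCF7L1-MUT it was 0 of the 38, against 0.0948% of all protein-coding genes. With only the TSS of the canonical transcript counted, 9 of the 38 genes (23.7%) had a TCF7L1 summit, against 3.55%. The listed HOX genes had a median of 2 annotated TSSs each and all protein-coding genes a median of 5. Among the listed genes, the 13 with a summit had a median of 3 and the 25 without one a median of 2. Neighbours were not independent, since 12 regions served the 13 genes. One pair of regions served both HOXB3 and HOXB4, and a single region served HOXB7 and HOXB8.

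By cluster the genes with a summit were 3 of 10 in HOXA, 6 of 10 in HOXB, 2 of 9 in HOXC and 2 of 9 in HOXD. By position along the axis they were 3 of 7 anterior genes (paralogs 1 to 3), 6 of 15 central genes (4 to 8) and 4 of 16 posterior genes (9 to 13). The Wilson intervals of the 3 classes overlapped, from 15.8 to 74.95% for the anterior genes, 19.8 to 64.3% for the central and 10.2 to 49.5% for the posterior genes. Read by paralog group, the same number in different clusters, all 3 listed genes of group 3 (HOXA3, HOXB3 and HOXD3) and 3 of 4 of group 4 (HOXA4, HOXB4 and HOXC4, but not HOXD4) had a summit. Group 9 had 2 of 4 and group 13 had 1 of 4, HOXB13. Groups 1, 2, 6, 10 and 12 had 0, and groups 5, 7, 8 and 11 had 1 each, HOXC5, HOXB7, HOXB8 and HOXD11. With only the canonical TSS counted, the anterior, central and posterior classes had 1 of 7, 5 of 15 and 3 of 16 genes. HOXA3 and HOXB3 were not among these, so HOXD3 was the only gene of group 3. The class and group counts are small and their order was not tested.

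Among the anterior genes, HOXA3, which patterns the pharyngeal arches and is needed for the thymus, had one of the strongest regions of the windows. Its region (chr7:27115119-27115594) lay 1493 bp upstream of the start of a short HOXA3 transcript, within an intron of the longer ones, and 10 bp upstream of a TSS of the antisense RNA HOXA-AS2. It had an enrichment of 6.58 times, which ranked 552 of 3663, and a −log10 q of 37.8, which ranked 33. At its summit 89 reads stood over a local background of 12.7 reads, and of the 922 regions near protein-coding TSSs only 2, itself and the HOXC5 region, had as many reads or more. The canonical HOXA3 TSS was 13246 bp from its own nearest summit, that of the HOXA9 region, so this gene was not among the 9.

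HOXB3 and HOXB4 had 2 regions between them. HOXB4, known for expanding blood stem cells when supplied in excess, had a summit 647 bp inside the gene, in its intron (chr17:48577500-48577941), with 70 reads over a background of 17.8, an enrichment of 3.78 times and a −log10 q of 15.1. The other summit (chr17:48580348-48580688) lay 1160 bp upstream of a HOXB3 TSS and 570 bp upstream of MIR10A, the microRNA gene placed between HOXB4 and HOXB5. That region had 45 reads over 15.5, an enrichment of 2.79 times and a −log10 q of 4.85. Its rank was 3648 of 3663 by fold enrichment and 2124 by q. HOXB3, a hindbrain gene, had 12 annotated TSSs, the most of any listed gene, and its canonical TSS was 9724 bp from a summit.

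HOXD3 was the third anterior gene, with a summit 1737 bp downstream of its canonical TSS, in an intron (chr2:176158878-176159191). It had 29 reads over 5.92, an enrichment of 4.34 times and a −log10 q of 6.79. This was weaker by q than the HOXA3 region and by fold enrichment stronger than both HOXB3 regions.

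The central genes held the strongest region of the windows by q. The HOXC5 region (chr12:54032894-54033950) was also the widest of the windows at 1057 bp, with a summit 624 bp inside HOXC5 and 276 bp upstream of MIR615, the microRNA gene within the HOXC5 intron. It had 92 reads over 12.9, an enrichment of 6.68 times and a −log10 q of 39.6. This region ranked 29 of 3663 by q and 506 by fold enrichment. None of the 922 regions near protein-coding TSSs had more reads. The long HOXC4 transcript also spans the summit of the HOXC5 region. The HOXC4 region nearest to that gene's canonical TSS lay 1580 bp upstream of it (chr12:54051990-54052572). That region had 63 reads over 9.67, an enrichment of 5.997 times (rank 870) and a −log10 q of 24.1 (rank 99).

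HOXA4 had a summit 285 bp inside its shortest transcript and 71 bp upstream of a TSS of HOXA-AS3 (chr7:27129664-27130316), with 42 reads over 7.16, an enrichment of 5.27 times and a −log10 q of 13.5. HOXA3, HOXA4, HOXC4 and HOXC5 were the 4 listed genes with a fold enrichment of at least 5 at such a region, against 1.92% of all protein-coding genes. HOXB7 and HOXB8 shared a region (chr17:48612259-48612965) of 2 summits, whose highest lay in the UTR of a HOXB8 transcript. It was 1051 bp downstream of a HOXB8 TSS, 2864 bp downstream of the canonical one and 1411 bp upstream of the canonical HOXB7 TSS. HOXB8 is a myeloid oncogene, and HOXB7 is often overexpressed in tumours. Its 58 reads stood over 20 reads, the highest local background of the windows, which gave an enrichment of 2.81 times and a −log10 q of 6.94.

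Of the posterior genes, HOXA9, a gene of myeloid leukaemia, had a summit 292 bp upstream of its canonical TSS (chr7:27165609-27166092), with 49 reads over 10.1, an enrichment of 4.51 times and a −log10 q of 13.1. HOXB9 was the only listed gene with the highest summit in its coding sequence, 573 bp inside the gene (chr17:48625583-48626291), with 37 reads over 8.65, an enrichment of 3.94 times and a −log10 q of 7.72. HOXB13, a gene of the prostate and the distal gut, had a summit 513 bp upstream of its single TSS, just outside the cluster as counted here (chr17:48729062-48729371), with 26 reads over 6.45, an enrichment of 3.62 times and a −log10 q of 4.26. HOXD11, which patterns the forearm, had a summit 44 bp upstream of one TSS and 3108 bp upstream of the canonical one (chr2:176103893-176104512), with 33 reads over 8.65, an enrichment of 3.52 times and a −log10 q of 5.46. The posterior regions were all below the HOXC4, HOXC5 and HOXA3 regions by both measures.

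The other 25 genes had no summit within 2.5 kb. The nearest of them were HOXD12 at 2617 bp, HOXC8 at 2677 bp and HOXB6 at 3378 bp, against 1737 bp for HOXD3, the farthest gene inside the limit. HOXC6, HOXD13, HOXD10, HOXC11, HOXC10, HOXB5, HOXA10, HOXD4 and HOXA7 followed at 4235 to 7893 bp. Beyond 10 kb were 13 genes, namely HOXC9, HOXA2, HOXA5, HOXD1, HOXA6, HOXB1, HOXD9, HOXA11, HOXC12, HOXD8, HOXB2, HOXA13 and HOXC13, of which HOXC13, a hair and nail gene, was the farthest at 39859 bp. HOXA13 and HOXD13, which pattern the hindgut, were at 29771 and 4457 bp.

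**Figure D2:**
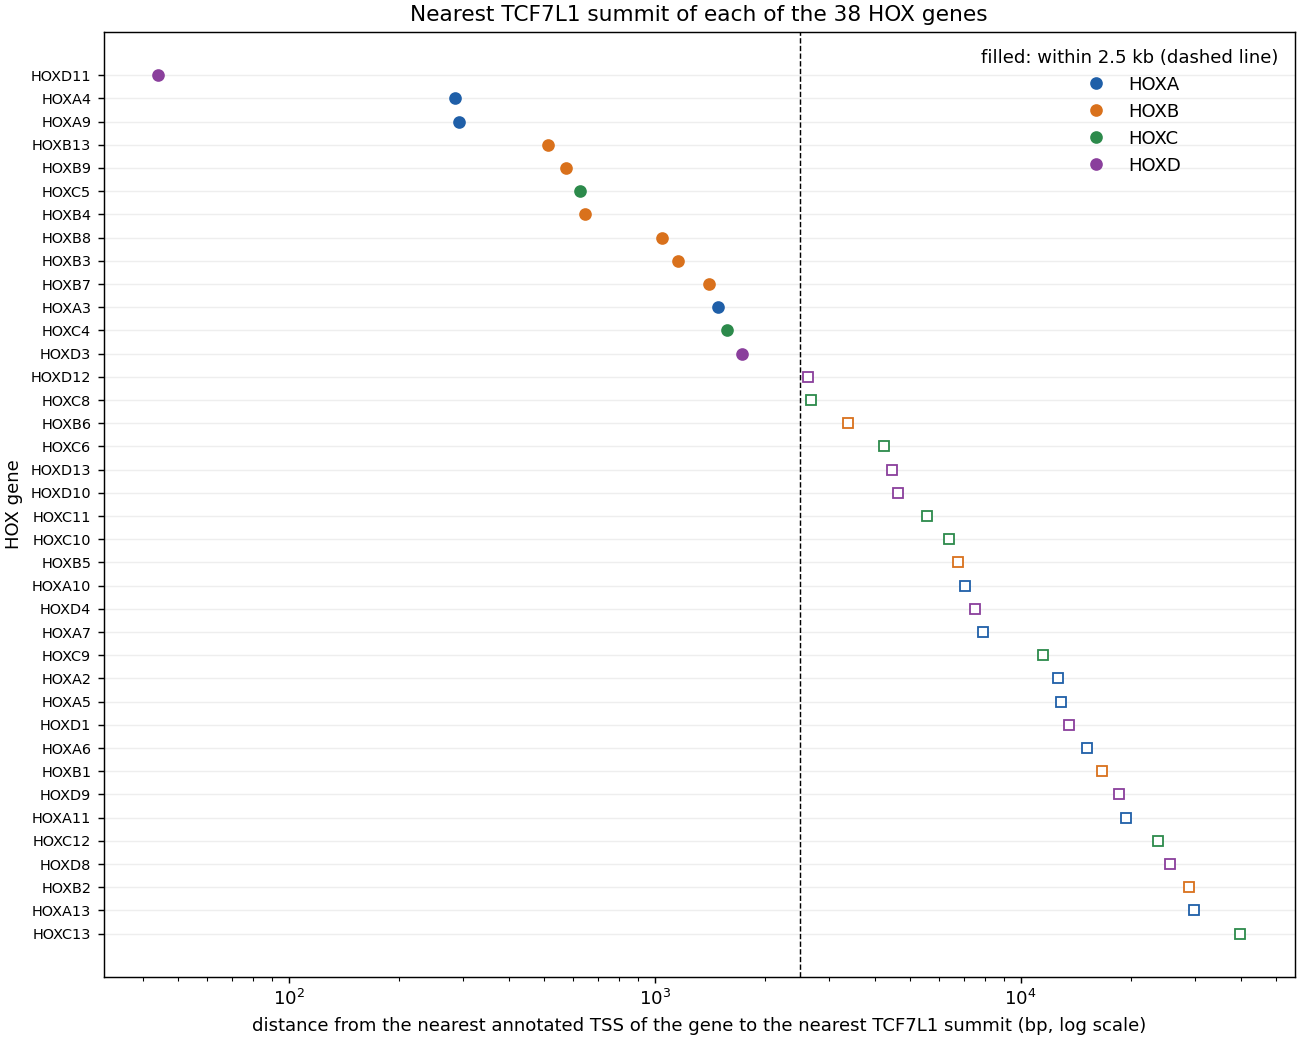
Distance in bp, on a log axis, from the nearest annotated TSS of each of the 38 HOX genes to the nearest TCF7L1 summit, with filled points within 2.5 kb and colours by cluster. Filled points run from 44 bp for HOXD11 to 1737 bp for HOXD3, and open ones from 2617 bp for HOXD12 to 39859 bp for HOXC13.

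Many summits lay nearer to a non-coding gene than to a HOX gene. Of the 17 regions inside the clusters, the nearest TSS was that of a listed HOX gene for 9, of a long non-coding RNA for 6 and of a microRNA for 2. The shares of these classes over the whole list are not given here, so the counts do not set the HOX regions apart. A TSS of any gene lay within 500 bp of 6 of the 17 summits (35.3%), against 21.6% of the whole list. HOXA-AS2, HOXA-AS3, MIR10A and MIR615 are named above. A region 3378 bp upstream of a HOXB6 TSS lay in an exon of HOXB-AS3, 1626 bp upstream of a TSS of that RNA (chr17:48600332-48600683). It had 53 reads over 14.7 and a −log10 q of 9.38. A region of 2 summits between HOXC11 and HOXC10 lay 3734 bp upstream of HOTAIR, a long RNA studied for its link to Polycomb (chr12:53978392-53979287), with 43 reads over 11.2 and a −log10 q of 7.95. A region between HOXB9 and HOXB13 lay 160 bp upstream of LINC03057 (chr17:48646975-48647332), with 26 reads over 6.23 and a −log10 q of 4.53. A region between HOXD3 and HOXD1 lay in an exon of HAGLR, the antisense RNA of that interval (chr2:176174892-176175281), with 27 reads over 4.59 and a −log10 q of 7.82. The 2 remaining regions inside the clusters were those nearest to HOXC8, in the UTR of that gene, and to HOXD12, upstream of it. ChIP fragments have no strand of transcription, so a summit between a HOX gene and its antisense RNA cannot be given to one of them.

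In the flanks, 5 of the 11 regions had no listed HOX TSS within 100 kb. The highest fold enrichment of all 28 regions, 7.68, belonged to one of these, 62 bp upstream of a TSS of SKAP2, an adaptor protein gene next to HOXA (chr7:26857508-26858239), with 25 reads over 2.39. The other flank region of HOXA lay past HOXA13, 147048 bp upstream of it, with 29 reads over 3.97 and a −log10 q of 10.8. Beside HOXB, 1 region lay in SKAP1, another adaptor gene, with a −log10 q of 5.50, and 2 lay between SKAP1 and HOXB1, 27032 and 16676 bp from HOXB1, with −log10 q of 3.43 and 1.86. Beside HOXC, 2 regions lay in SMUG1, a DNA repair gene, with −log10 q of 6.10 and 2.71. The single HOXD flank region, 219040 bp past HOXD1, had the fewest reads of the windows, 9 over 1.40, and the lowest −log10 q, 1.63. The flank regions thus had 9 to 32 reads, against 26 to 92 inside the clusters.

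The regions inside the clusters stood on a high local background. Their median was 43 reads at the summit over 9.67 reads of background, against 20 over 3.29 for the 3573 TCF7L1 regions on chromosomes. Of the 17 regions, 15 lay above the 90th percentile of background in the whole list, 6.17 reads, and 12 above that of summit reads, 35. In the flanks these counts were 3 and 0 of 11. Fold enrichment and q then went different ways. The median fold enrichment inside the clusters was 4.04 (95% interval of the median 3.61 to 5.19), below the 5.00 (4.95 to 5.05) of the whole list, and 6 of 17 regions were above it. The median −log10 q was 7.95 (6.94 to 13.5) against 5.47 (5.32 to 5.60), and 14 of 17 regions were above it. By q, 3 HOX regions were among the first 100 of the list, and by fold enrichment 0 were.

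The median background was higher in each cluster than in neighbouring regions. Median local background was 10.1 reads inside HOXA and 3.04 in the 17 TCF7L1 regions within 5 Mb of its window, 15.1 and 5.13 for HOXB, 10.4 and 4.22 for HOXC, and 6.22 and 2.20 for HOXD. In this order the medians rest on 3, 6, 4 and 4 cluster regions and on 17, 12, 5 and 14 neighbours. Neighbours reached 12.6 for HOXA, 7.3 for HOXB and 7.7 for HOXC, above the lowest cluster regions at 7.2, 6.2 and 7.4. For HOXD they reached 3.9, below the lowest cluster region at 4.6. Reads and background were solved from the deposited fold enrichment and p-value of each summit, and whether the background came from an input library or from the same sample is not given in the sources used here. The part of the high background in the density of regions was not tested.

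**Figure D3:**
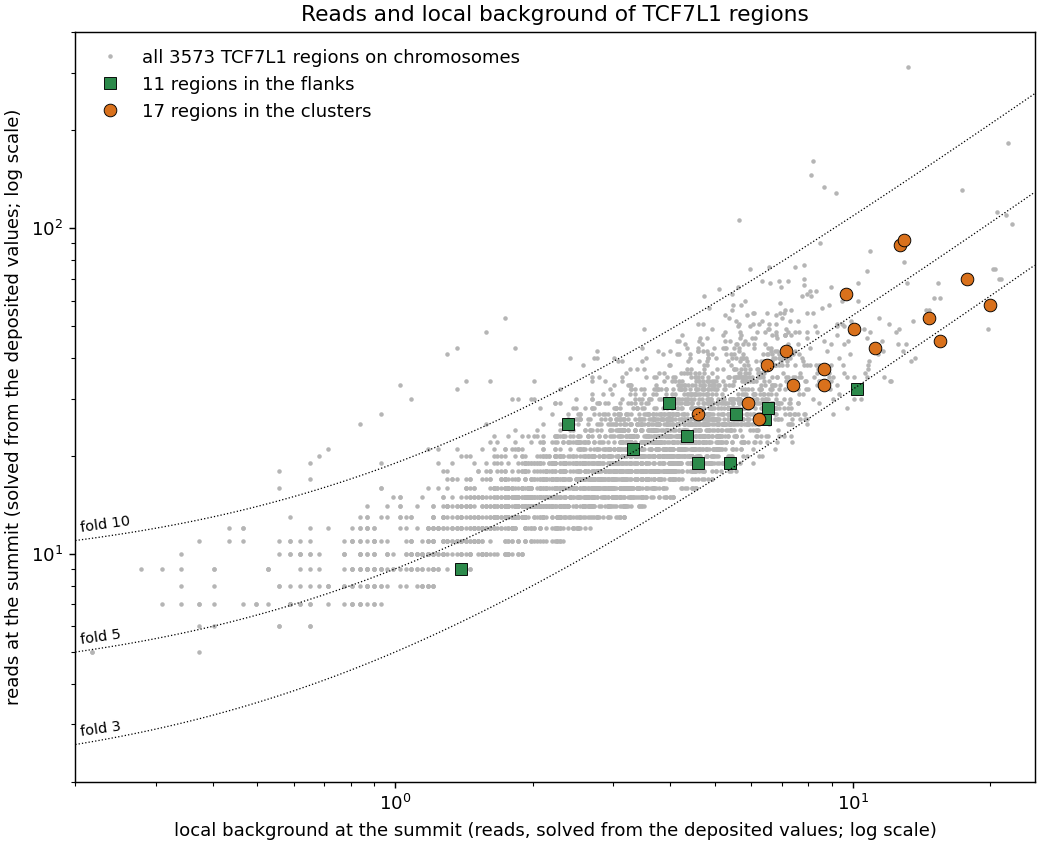
Reads at the summit against local background, both in reads on log axes, for 3573 TCF7L1 regions (grey), the 11 flank regions (green squares) and the 17 cluster regions (orange circles), with dotted lines at equal fold enrichment. The cluster regions gather at the upper right, with medians of 43 reads and 9.67 background reads, and 15 of 17 lie to the right of the list's 90th percentile of background at 6.17.

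The TCF word was about as common under HOX summits as elsewhere in the list. It was present in 7 of the 28 windows of 201 bp (25%, Wilson interval 12.7 to 43.4%), against 26.8% of the whole list. Inside the clusters it was in 5 of 17 (29.4%, 13.3 to 53.1%), and near HOX TSSs in 5 of 12 (41.7%, 19.3 to 68.1%), against 23.8% (21.1 to 26.6%) of all regions near protein-coding TSSs. Windows of the same length laid end to end across the 4 clusters held it in 12.1% (10.9 to 13.4%). The intervals near HOX TSSs and for the coding promoters overlapped. The HOXC5, HOXA3 and HOXC4 windows, the 3 strongest by q, held no such word. The 5 that did were those of HOXA4, HOXB4, HOXB3, HOXB8 and HOXB9, of which HOXB9 had 2 matches, 33 bp before and 30 bp after its summit.

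A CDX word was more common inside the clusters. It was in 7 of the 17 windows there (41.2%, 21.6 to 64.0%) and in 0 of the 11 in the flanks, where the interval reached 25.9%. The whole list had it in 12.01% (10.98 to 13.1%), and windows laid across the clusters in 8.82% (7.78 to 9.98%). The latter covered the clusters from end to end and were not matched to sequence near a TSS. Near HOX TSSs a CDX word was in 7 of 12 windows (58.3%, 31.9 to 80.7%), against 9.76% (8.01 to 11.9%) of regions near all protein-coding TSSs. The 7 windows were those of HOXA3, HOXA4, HOXB4, HOXB8, HOXB9, HOXC5 and HOXD3, with match centres from 31 bp before to 69 bp after the summit. Because some of these windows share sequence, their count is not one of 7 independent sites.

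The same words with their letters reversed, GGTATTT and GTTATTT, were searched after the first result was seen. They were in 2 of 17 windows (11.8%, 3.29 to 34.3%), against 3.30% of the whole list and 5.23% of windows across the clusters. Near HOX TSSs they were in 2 of 12 windows (16.7%, 4.70 to 44.8%), against 3.58% of regions near all protein-coding TSSs. The reversed words were thus also above these shares, with wide intervals. Whether the higher share is particular to the CDX words was not tested. The windows inside the clusters had a median GC content of 52.7%, against 51.7% in the whole list. Near HOX TSSs the median was 51.2%, against 54.2% in regions near all protein-coding TSSs. The median ratio of observed to expected CpG was 0.64 inside the clusters and 0.35 in the whole list. The part of base composition in the word shares was not tested. No protein other than FLAG-tagged TCF7L1 was measured, and a match is not a bound site.

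**Figure D4:**
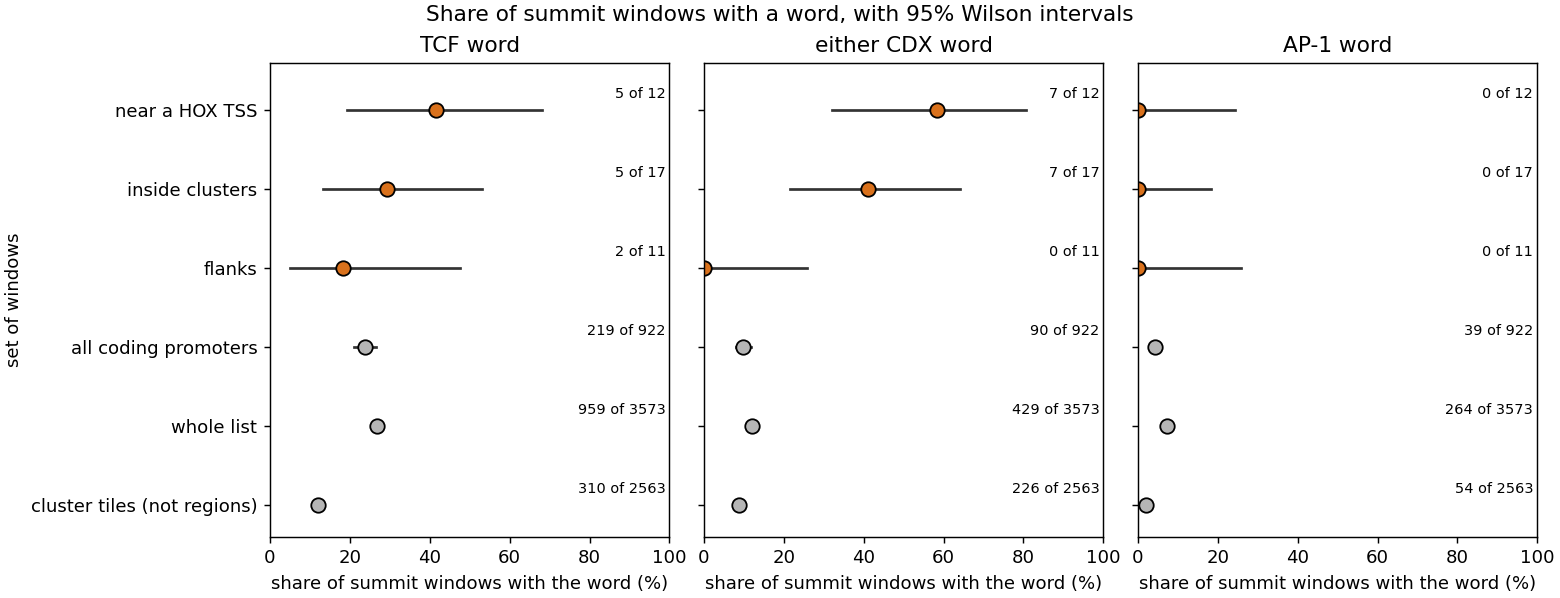
Share of windows of 201 bp, in percent, that held a TCF word, a CDX word or the AP-1 word, with 95% Wilson intervals as lines, for 3 sets of HOX regions (orange) and 3 backgrounds (grey). The CDX share inside the clusters, 41.2%, stands above that of the whole list, 12.01%, while the TCF shares of 29.4% and 26.8% lie close to each other.

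Other words were at or near the level of the list. The AP-1 word, TGACTCA on either strand, was in 0 of the 28 windows, where the interval reached 12.1%, against 7.39% of the whole list. The GATA word, GATAA or GATAG after A or T, was in 25% of the HOX windows and 31.9% of the list. A GC box, GGGCGG, was in 14.3% and 14.1%. The forkhead word, TATTTAC or TGTTTAC, was in 7.14% and 12.7%. Every one of these shares of the list lay within the Wilson interval of the HOX windows. Of the HOX windows, 0 of 28 were made mostly of 31-base words found more than once in the genome, against 21.1% of the list. The highest shares of such words were 38.01% in the window nearest to LINC03057, 35.1% in a HOXC flank window and 19.3% in the SKAP1 window.

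RefSeq promoter sequences, from 250 bases before to 50 after a gene start, were matched to 20 of the 38 genes, with 27 promoters. A CDX word was in 5 of the 27 (18.5%, 8.18 to 36.7%), against 6.35% of 35116 promoters of all genes, and a TCF word in 5 (18.5%), against 13.8%. Of the promoters of HOX genes with a summit, 4 of 13 held a CDX word and 0 held a TCF word, and of those without a summit, 1 of 14 and 5 of 14.

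Genes that work with HOX proteins or act on the clusters were examined in 4 lists of 33 genes in all. Of these, 4 (12.1%) had a TCF7L1 summit within 2.5 kb of a TSS, against 4.86% of all protein-coding genes. The lists are short, and this difference was not tested. Among 8 TALE genes, those with a summit were PBX3, MEIS1 and MEIS2, partners of HOX proteins on DNA. The PBX3 summit lay 98 bp inside a transcript, with 20 reads over 1.40 and a fold enrichment of 8.77. MEIS2 had a fold enrichment of 7.11 in the nearest of 3 regions, and MEIS1 of 5.40. These lay at other TSSs than the canonical one, since 0 of the 33 genes had a summit within 2.5 kb of the canonical TSS. The share over all protein-coding genes was 3.55% there.

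Among 8 CDX, ParaHox and EVX genes, CDX2, the master regulator of intestinal identity, was the 1 with a summit. The summit lay 1186 bp downstream of a CDX2 TSS other than the canonical one, in a window with a TCF word (chr13:27965899-27966350). Its 32 reads stood over 7.60, with an enrichment of 3.84 times and a −log10 q of 6.20, weaker than most regions of the HOX clusters by q. EVX2, which lies beside HOXD13, and EVX1, beside HOXA13, had none, their nearest summits being 13216 and 76871 bp away. Of 13 Polycomb genes 0 had a summit, the nearest being at 4269 bp from BMI1, and of 4 genes of the trithorax group and CTCF 0 had one. The share over all protein-coding genes was 4.86%, so in lists this short a count of 0 does not set the genes apart. TCF7L1-MUT had none at any of the 33 genes, against 0.0948% of all protein-coding genes.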

How the data were processed

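Peak lists of 2 ChIP-seq samples, TCF7L1 and TCF7L1-MUT, were used, and the genotype labels gave the groups. Per the study's methods, the authors trimmed with skewer, aligned to GRCh38/hg38 with BWA 0.7.12 and called peaks with MACS2 2.1.0, and each sample has its own deposited peak list. Input, thresholds and duplicate handling are not given in the sources used here. The peak files hold no library totals, and the study lists both libraries at similar read totals. The deposited values are fold enrichment (a ratio of signal at the summit to local background), −log10 p-values and −log10 q-values, and a score that repeats q and was not used. Summit files held the same 3762 and 224 summits as the peak files.

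Summits of 1 region were merged under that of highest −log10 q. The list held 38 genes, and members, gene lists and words were chosen with earlier results of these data known. TSSs were those of all GENCODE release 44 transcripts. Every gene with a summit within 2.5 kb of a TSS is named with its values. Reads and background were solved from fold enrichment, with a pseudocount of 1, and the Poisson p-value, and all 3573 regions on chromosomes were solved to within 0.001. Shares have Wilson intervals, densities exact Poisson intervals and medians binomial intervals (95%), computed with scipy 1.17.1 and statsmodels 0.14.6. With 1 sample per group no test was made. Pattern search, solver and distances were checked on simulated data. Alternatives were a stricter q or fold enrichment, other flanks, TSS definitions and distances, overlap rules, window sizes and patterns. One gene of the lists fixed at the start is not reported here and was left out of their counts. Positions are 1-based.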

Additional observations from a re-analysis of the deposited data

How the results depend on the processing

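Of 62 alternative values, 44 stayed within 1.5 times the count or within the interval of the value reported, and the 18 that moved are these. With a fold enrichment of at least 5, the windows kept 9 regions and 4 HOX genes with a summit, against 1.92% of all protein-coding genes. The median fold enrichment was then 5.997 and the density 3.58 regions per Mb. The density over the chromosomes at that cutoff is not given here, and the one printed earlier was without a cutoff. Without flanks there were 17 regions, at 33.0 per Mb and with 64.7% near a protein-coding TSS. In the main setting 46.4% of the 28 regions lay within 2.5 kb of such a TSS, against 25.8% of the whole list. With flanks of 100 kb the density was 17.5 per Mb. With a TSS distance of 1 kb, 7 HOX genes and 2 of the 33 related genes had a summit, against 3.85% of all protein-coding genes, and 28.6% of regions lay near a TSS. With the 5′ end of each gene as its TSS, these were 6, 0 and 25%, against 3.40% of all protein-coding genes. The 3.85% and 3.40% are shares of genes, and the matching shares of regions in the whole list are not given here. With the canonical TSS, 0 of the 33 related genes had a summit, against 3.55% of all protein-coding genes. Windows of 250 bp to either side held a TCF word in 46.4% of regions, against 48.4% of the whole list, and, chosen after the data were seen, a CDX word in 76.5% of regions inside the clusters, against 24.0% of the whole list. The looser TCF pattern, TTTGA or TTTTA followed by A or T, was in 64.3%, against 53.6% of the whole list and 44.9% of windows laid across the clusters, both in windows of 100 bp to either side. Larger windows and looser patterns hold more matches by construction. The 0 TCF7L1-MUT regions and genes stayed at 0 in the alternatives run on them. No paired analysis was possible because there was only 1 sample in a group. The 1 sample per group limits every value, and a region missing from a list is not evidence that the protein is absent there.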
